A study of Mus musculus with 6 samples.

Results

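The genes described here are 38 mouse genes of the smooth muscle contractile apparatus and of the programmes driven by SRF and YAP. They were taken by symbol, not by a cut on their values, from a table of 20325 genes, and all 38 were in it. The list was chosen with earlier results of these data known, which limits every comparison of the members with all genes. By role, 14 encode contractile or contraction-regulating proteins of smooth muscle, 10 are cytoskeletal relatives of those proteins, 8 encode adhesion and LIM-domain proteins, 2 encode transcriptional regulators (Srf and Myocd), and 4 are targets of YAP. RNA was sequenced from C3H10T1/2 cells, a multipotent mesenchymal line derived from C3H mouse embryos, at passage 10 to 15. The knockdown group (n = 3) was treated with a mix of small interfering RNAs aimed at Ring1a and at Ring1b, and the control group (n = 3) with scramble small interfering RNA; both are parental cells with no other change given in the labels. Ring1a and Ring1b, the products of Ring1 and Rnf2, form the catalytic core of Polycomb repressive complex 1, a ubiquitin ligase that marks histone H2A at silent developmental genes. The labels give neither dose nor time for the small interfering RNAs, and this cell line is a progenitor model, not smooth muscle.

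Smooth muscle contracts when myosin light chain kinase phosphorylates the regulatory light chain of myosin II, which then pulls on actin filaments that carry tropomyosin, calponin and caldesmon. Many genes of this apparatus carry the CArG box, the sequence bound by SRF, near their starts. SRF works with the MRTF coactivators, which leave the cytoplasm when actin polymerises, and in smooth muscle with myocardin, the product of Myocd. YAP enters the nucleus of spread or stretched cells and acts through the TEAD factors, whose targets include Ctgf, Cyr61, Ankrd1 and Amotl2. C3H10T1/2 cells are a widely used model in which smooth muscle genes can be switched on by TGF-beta or myocardin.

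Promoter windows of members are shown because they hold the letters that SRF and TEAD factors recognise, and because the same genes differed in how they behaved below. RefSeq promoters on GRCm38.p6, spanning 250 bases before to 50 bases after each gene's start, were matched to 31 of the 38 members, with 36 promoters in all; Actg2, Csrp2, Ctgf, Myh11, Myocd, Tagln and Tgfb1i1 were not matched. Each line runs 5′ to 3′ on the gene's strand. Capitals mark the perfect CArG box in the lines of Myl9 to Vcl, and in Vcl a TEAD motif as well. The line of Acta2 has no perfect CArG box: its capitals mark a TEAD motif and 2 CArG boxes with 1 mismatch in the A/T core.
Myl9, chr2:156775278-156775337, plus strand: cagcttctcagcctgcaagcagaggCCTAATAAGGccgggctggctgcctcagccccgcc
Cnn2, chr10:79988519-79988578, plus strand: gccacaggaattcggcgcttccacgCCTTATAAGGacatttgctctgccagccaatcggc
Fhl2, chr1:43163962-43164017, minus strand: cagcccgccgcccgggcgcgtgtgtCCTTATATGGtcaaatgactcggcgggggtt
Myl6, chr10:128493025-128493084, minus strand: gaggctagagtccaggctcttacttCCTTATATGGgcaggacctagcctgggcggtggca
Srf, chr17:46556190-46556269, minus strand: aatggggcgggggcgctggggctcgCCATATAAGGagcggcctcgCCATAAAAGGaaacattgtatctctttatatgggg
Vcl, chr14:20929148-20929285, plus strand: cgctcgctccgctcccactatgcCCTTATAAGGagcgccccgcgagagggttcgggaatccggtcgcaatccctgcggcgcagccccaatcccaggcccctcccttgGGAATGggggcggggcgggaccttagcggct
Acta2, chr19:34255374-34255544, minus strand: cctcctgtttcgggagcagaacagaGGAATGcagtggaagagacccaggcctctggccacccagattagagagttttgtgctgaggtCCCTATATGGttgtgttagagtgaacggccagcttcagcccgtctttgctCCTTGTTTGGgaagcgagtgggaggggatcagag
In the next lines, from YAP targets and from the myosin light chain kinase gene, capitals mark the TEAD motif.
Ankrd1, chr19:36119937-36120079, minus strand: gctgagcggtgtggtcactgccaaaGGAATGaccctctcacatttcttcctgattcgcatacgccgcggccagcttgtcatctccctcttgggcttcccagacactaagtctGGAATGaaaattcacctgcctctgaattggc
Cyr61, chr3:145650058-145650113, minus strand: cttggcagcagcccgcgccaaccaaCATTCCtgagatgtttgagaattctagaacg
Amotl2, chr9:102717714-102717769, plus strand: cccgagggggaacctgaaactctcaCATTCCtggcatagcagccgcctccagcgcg
Mylk, chr16:34784767-34784822, plus strand: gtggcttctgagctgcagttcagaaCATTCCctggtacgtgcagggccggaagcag

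A perfect CArG box, read on both strands, stood in 7 of the 36 member promoters (19.4%), those of Cnn2, Fhl2 (both of its promoters), Myl6, Myl9, Srf and Vcl. Over all 32851 promoters of the same length, 535 (1.63%) held one. The CArG box with 1 core mismatch stood in 4 of 36 (11.1%), in Acta2, Myl9 and Tpm3, against 8.50% of all promoters. The TEAD motif, GGAATG or CATTCC, stood in 14 of 36 (38.9%), against 14.7% of all promoters. These promoters are those of Acta2, Actn4, Amotl2, Ankrd1, Cald1, Cyr61, Flna, Lmod1, Myh10, Mylk, Smtn, Tagln2, Tpm1 and Vcl. No match of one motif overlapped a match of another in the lines printed. These are descriptions of letters, and a window without a match says nothing about binding elsewhere at the gene.

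Values below are the deposited normalized estimated reads per gene, given in the order of replicates 1, 2 and 3. Estimated depth was 23200000, 4600000 and 18500000 reads in the knockdown libraries, against 51800000, 5400000 and 15100000 reads in the control libraries. The targeted Rnf2 stood at 129, 76.5 and 152 in the knockdowns, against 815, 829 and 799 in the controls (log2 fold change −2.82, SE 0.28, limma adjusted p = 0.00946), and Ring1 at 162, 268 and 186 in the knockdowns, against 336, 386 and 374 in the controls (log2 fold change −0.86, SE 0.23, limma adjusted p = 0.104). Rnf2 was therefore lower in 3 of 3 knockdown libraries, though it missed the threshold of 0.05 without knockdown replicate 1 or any control (limma adjusted p up to 0.0852), and Ring1, also below every control, missed it with all 6. Knockdown replicate 2 stood apart: its log2 values correlated at 0.821 to 0.867 with the other libraries, which correlated at 0.944 to 0.993 among themselves. Its 81 ribosomal protein genes held 20.6% of the summed values, where the remaining 5 libraries ranged between 5.05 and 5.79%. Its difference from the other knockdowns followed transcript length, with a Spearman rho of −0.61 over 11949 genes that share these libraries. Counts of members at the main settings, and member log2 fold changes that move with this library, are therefore given with and without it. Family shares are given with all 6 libraries unless stated.

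Most members stood higher in the knockdowns, 26 of 35 by the fitted log2 fold change, and few passed the test. Of the 35 members whose mean across the 6 libraries reached 10, 3 rose and 0 fell at a limma adjusted p under 0.05: Tagln, Zyx and Ankrd1. Over all 12085 genes tested, 3.2% rose and 1.78% fell. In 19 members every knockdown value lay above every control, against 20.5% of all genes, and in 3 members (Cnn3, Myh10 and Vcl) every knockdown value lay below, against 23.7% of all genes. The median log2 fold change, knockdown over control, was 0.59 over the members and 0.01 over all genes tested. Myh11, Cnn1 and Myocd were under the mean of 10 and are given by their values only. Ankrd1 and Des reached it through the knockdowns alone, so their rise does not count beside the share over all genes. A mean of at least 50 left both out. There, 2 of 33 members were called higher (Tagln and Zyx) and 0 lower, against 277 and 164 of 10743 genes. In that fit, 24 of 33 members had a positive log2 fold change. Every knockdown lay above every control in 17 members and below in 3, against 2090 and 2685 of 10743 genes.

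On the deposited scale, the shift was seen in each knockdown library on its own. The median member lay 0.51, 0.46 and 0.53 above the control mean, on the log2 scale, in knockdown replicates 1, 2 and 3. The 38 genes together took 1.61, 1.58 and 1.70% of the total in the knockdowns, against 1.30, 1.42 and 1.41% in the controls. In knockdown replicate 2, Myl6 alone held 95567 of the 308263 summed over the members, so its share rests largely on that gene. The deposited total of that library was 19500000, against 13100000 to 13700000 in the other libraries. Its median with total scaling was not computed. The shift in knockdown replicate 2 is therefore shown on the deposited scale only, and may not hold once its larger total is taken into account. Without knockdown replicate 2, limma called 20 members higher (Ankrd1 and Des among them) and 2 lower (Cnn3 and Myh10), with a median of 0.50. That fit called 23.8% of all 11995 genes higher and 26.1% lower, so its share for lower members was below the background and that for higher members above it. In it, 30 of 35 members had a positive log2 fold change. Both remaining knockdowns lay above every control in 23 members and below in 3, against 3848 and 4294 of 11995 genes. Without any other single library, none of the 3 called members passed (limma adjusted p between 0.0665 and 0.165). In those fits 9 to 15 members had an unadjusted limma p under 0.05, against 1475 to 2482 of the 12081 to 12131 genes tested. Calls were few over the whole table as well, at 0 to 37 genes higher and 0 to 57 lower. In bulk RNA, a change in how many cells express a gene and a change in RNA per cell cannot be told apart.

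**Figure D1:**
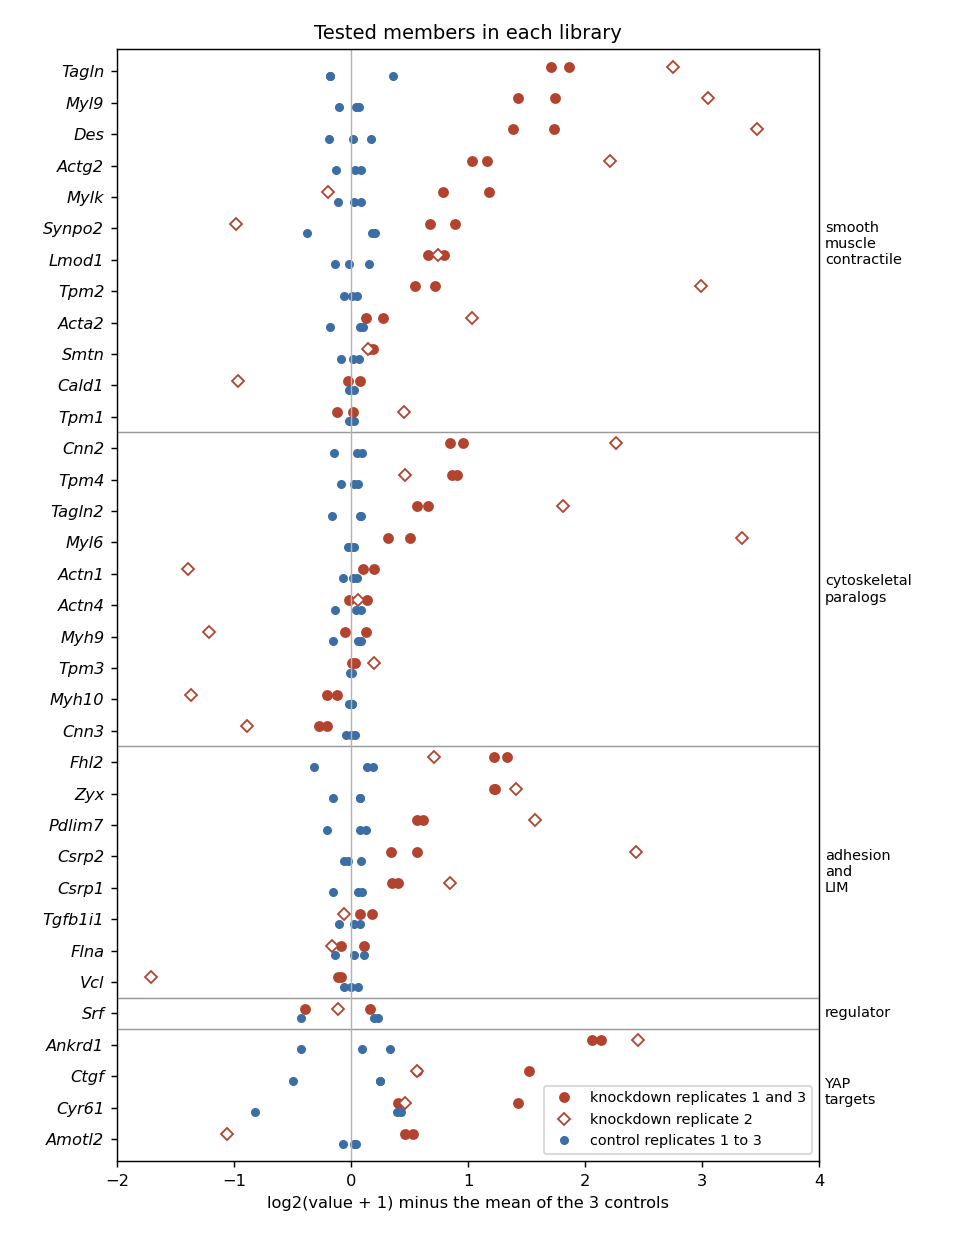
Difference in log2(value + 1) of each of the 35 tested members from the mean of the 3 controls (horizontal axis), by library, with members grouped by role on the vertical axis. Filled red circles are knockdown replicates 1 and 3, open diamonds knockdown replicate 2 and blue circles the controls; Tagln, Zyx and Ankrd1 have all knockdowns well to the right, while Vcl, Myh10 and Cnn3 have all of them to the left.

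Where knockdown replicate 2 differed from its group, transcript length went with the difference. Over the 35 members, the Spearman rho between length and the log2 difference of knockdown replicate 2 from the other knockdowns was −0.70. The 11 shortest members (665 to 1714 nt) lay a median of 1.11 higher in it on the log2 scale, the 13 in the middle 0.18 higher, and the 11 longest (3335 to 8400.5 nt) 1.18 lower, a median of −1.18. Among long members, Mylk, Synpo2 and Amotl2 had this library below the controls, and among short ones, Myl6 and Tpm2 had it far above. Exceptions were 2 of the 11 longest, higher in it than in the other knockdowns, and 2 of the 11 shortest, which were not; the part of length in the difference was not tested. With a correction for this length trend, limma called 8 members higher (Actg2, Ankrd1, Lmod1, Myl9, Mylk, Tagln, Tagln2 and Zyx) and 0 lower, against 6.85% of all 11949 genes higher and 4.46% lower in that fit.

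**Figure D2:**
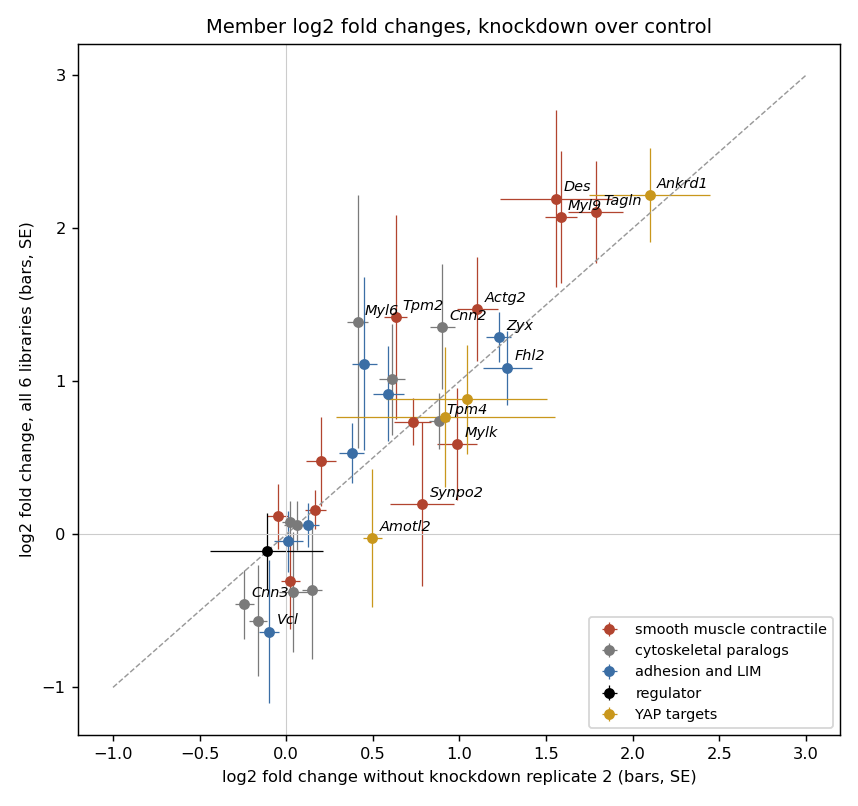
Log2 fold change of the 35 tested members, knockdown over control, in the fit of all 6 libraries (vertical axis) against the fit without knockdown replicate 2 (horizontal axis); bars are SE, colours give the role and the dashed line marks equality. Tagln, Ankrd1 and Zyx lie near the line, Myl6 (1.39 against 0.41) and Tpm2 (1.42 against 0.63) above it, and Amotl2 (−0.02 against 0.50) below it.

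Among the 14 contractile genes, 1 rose and 0 fell of the 12 tested, with a median log2 fold change of 0.66. Over all genes tested, 3.2% rose and 1.78% fell. Without knockdown replicate 2, 9 of the 12 were called higher and 0 lower, with a median of 0.76. Des, which reached the filter through the knockdowns alone, is among these 9. That fit called 23.8% of all genes higher and 26.1% lower. Tagln encodes transgelin (SM22-alpha), an actin-binding protein and the most used early marker of the smooth muscle lineage. Its values were 543, 1003 and 487 in the knockdowns, against 131, 190.4 and 131 in the controls. Every knockdown library held more than every control, and the mean was 4.50-fold higher (log2 fold change 2.11, SE 0.33, limma adjusted p = 0.0291; 1.79, SE 0.16, limma adjusted p = 1.49e-05 without knockdown replicate 2). Tagln is also in the authors' deposited table of 323 genes, with a fold of 4.58.

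The myosin light chain gene Myl9 and the kinase gene Mylk were both higher in knockdown replicates 1 and 3. Myl9 encodes the regulatory light chain of smooth muscle and nonmuscle myosin II, the substrate of the kinase. It stood at 3519, 8696 and 2817 in the knockdowns, against 1098, 975 and 1080.3 in the controls. The knockdowns did not overlap with the controls, but knockdown replicate 2 was 2.74 times the mean of the others and the test was missed (log2 fold change 2.07, SE 0.43, limma adjusted p = 0.0579; 1.58, SE 0.09, limma adjusted p = 1.03e-06 without that library). Mylk, which encodes myosin light chain kinase, stood at 509, 196 and 388 in the knockdowns, against 237, 228 and 208 in the controls. Here replicate 2 lay below all controls while the other knockdowns lay above all of them (log2 fold change 0.59, SE 0.37, limma adjusted p = 0.399; 0.99, SE 0.12, limma adjusted p = 3.13e-05 without replicate 2).

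The smooth muscle actins and their partners showed unequal differences. Actg2, the gamma actin of visceral smooth muscle, stood at 231, 523 and 253 in the knockdowns, against 115, 103 and 119 in the controls (log2 fold change 1.47, SE 0.34, limma adjusted p = 0.0787; 1.10, SE 0.12, limma adjusted p = 1.23e-05 without replicate 2). Acta2, alpha smooth muscle actin, was already abundant and stood at 15630.4, 29239 and 17266 in the knockdowns, against 12598, 15093 and 15328 in the controls. Both had all knockdowns above all controls, but the margin for Acta2 was narrow (log2 fold change 0.48, SE 0.29, limma adjusted p = 0.393; 0.20, SE 0.09, limma adjusted p = 0.0755 without replicate 2). Lmod1, leiomodin 1, which nucleates actin filaments in smooth muscle, stood at 349, 336 and 317 in the knockdowns, against 182, 198 and 222 in the controls. Its knockdown libraries were close to each other, replicate 2 included (log2 fold change 0.74, SE 0.15, limma adjusted p = 0.0561; 0.73, SE 0.11, limma adjusted p = 0.000131 without replicate 2). Des, encoding the intermediate filament protein desmin, was low in both groups at 24.3, 106 and 31.3 in the knockdowns, against 8.80, 7.52 and 9.94 in the controls (log2 fold change 2.19, SE 0.58, limma adjusted p = 0.105; 1.56, SE 0.32, limma adjusted p = 0.00178 without replicate 2). The value of Des in control replicate 2 was that of 3 reads, so the size of its fold is uncertain.

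Other contractile genes hardly differed or depended on the library. Smtn, encoding smoothelin, a marker of contractile smooth muscle, stood at 1465, 1462 and 1501 in the knockdowns, against 1246, 1331 and 1382 in the controls, with no overlap but a small margin (log2 fold change 0.16, SE 0.13, limma adjusted p = 0.481; 0.17, SE 0.06, limma adjusted p = 0.0301 without replicate 2). Cald1, caldesmon, which restrains actin-activated myosin, stood at 11914, 6224 and 12834 in the knockdowns, against 12006, 12382 and 12081 in the controls. Only replicate 2 of Cald1 lay away from the rest (log2 fold change −0.31, SE 0.31, limma adjusted p = 0.556; 0.02, SE 0.06, limma adjusted p = 0.746 without it). Synpo2, encoding the actin-bundling protein synaptopodin 2 (myopodin), stood at 158, 42.5 and 136 in the knockdowns, against 96.1, 97.7 and 65.04 in the controls. Replicates 1 and 3 lay above the controls and replicate 2 below them (log2 fold change 0.20, SE 0.54, limma adjusted p = 0.821; 0.79, SE 0.18, limma adjusted p = 0.0041 without it).

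Myh11, Cnn1 and Myocd were the least abundant members and were near the floor in the shallow libraries. A floor of 3 reads was 1.70, 12.8 and 2.13 in the knockdown libraries, against 0.777, 7.52 and 2.71 in the control libraries. Myh11, the smooth muscle myosin heavy chain and the most specific marker of the mature cell, stood at 13.6, 12.8 and 4.26 in the knockdowns, against 7.51, 5.01 and 6.32 in the controls. Myh11 was at or below its floor in the second library of each group and above it in the other 4. Cnn1, calponin 1, which binds actin and slows the myosin ATPase, stood at 11.3, 25.5 and 7.82 in the knockdowns, against 2.59, 0 and 2.71 in the controls, above its floor in every knockdown and, among the controls, in replicate 1 alone. The authors' deposited table lists Cnn1 with a fold of 8.55. Myocd stood at 1.70, 4.25 and 3.55 in the knockdowns, against 2.59, 0 and 2.71 in the controls, above the floor in knockdown replicate 3 and control replicate 1 alone, and no fold is given for it.

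**Figure D3:**
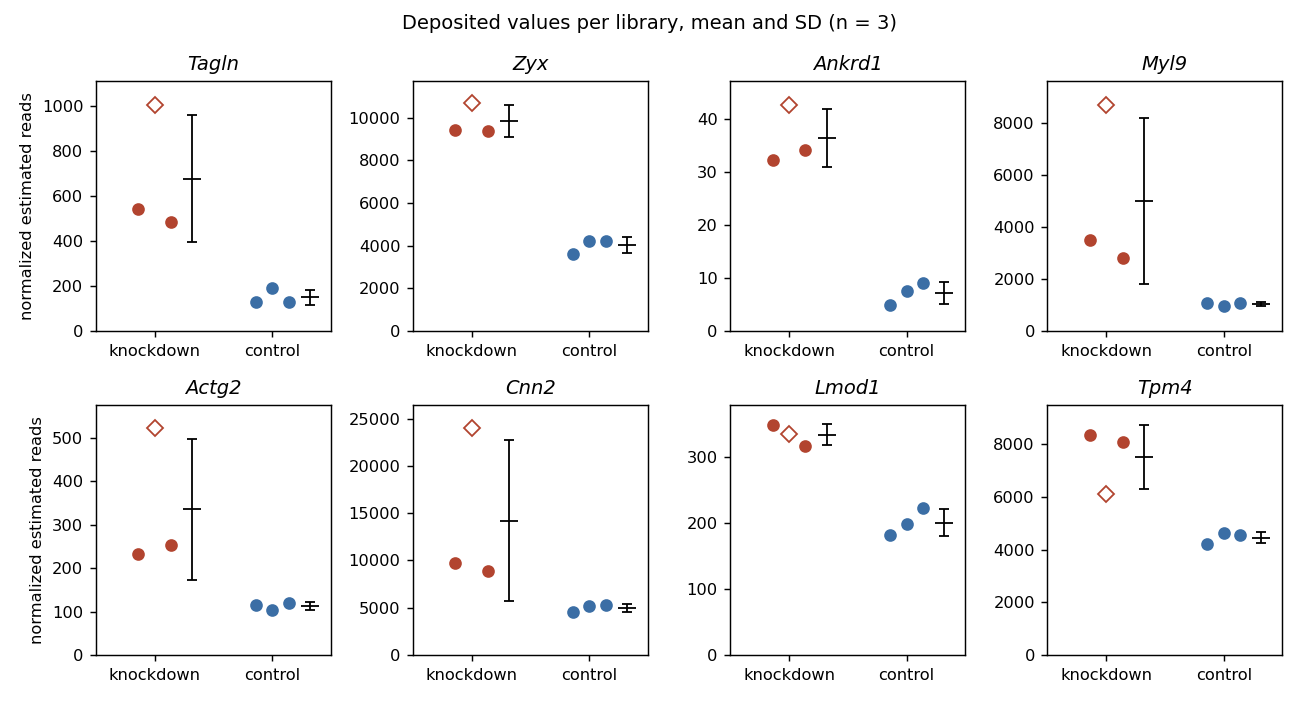
Deposited values of 8 members in each library (vertical axes, normalized estimated reads; each panel has its own scale from 0), knockdown on the left and control on the right of each panel. Circles are libraries, the open diamond is knockdown replicate 2, and the dash with bars is the mean ± SD (n = 3); in each panel all knockdown libraries lie above all controls.

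Of the 10 cytoskeletal relatives, 0 rose and 0 fell, with a median log2 fold change of 0.07. Without knockdown replicate 2, 4 were called higher (Cnn2, Myl6, Tagln2 and Tpm4) and 2 lower (Cnn3 and Myh10), where 23.8% of all genes were called higher and 26.1% lower. Cnn2, the calponin of many non-muscle cells, stood at 9679, 23994 and 8925 in the knockdowns, against 4509.7, 5162 and 5301 in the controls. Cnn3, the acidic calponin, differed in the other direction, at 6372, 3975 and 6083 in the knockdowns, against 7546, 7157 and 7381 in the controls. Neither pair of groups overlapped (log2 fold change 1.36, SE 0.41, limma adjusted p = 0.142, and 0.90 without replicate 2 at limma adjusted p = 1.66e-06, for Cnn2). For Cnn3 the difference was smaller (log2 fold change −0.46, SE 0.23, limma adjusted p = 0.317; −0.24, SE 0.05, limma adjusted p = 0.00273 without replicate 2). Tagln2, the transgelin of non-muscle cells, stood at 3294, 7837 and 3525 in the knockdowns, against 1993, 2360.3 and 2354 in the controls (log2 fold change 1.01, SE 0.36, limma adjusted p = 0.197; 0.61, SE 0.07, limma adjusted p = 5.18e-05 without replicate 2).

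Among the light and heavy chains of myosin, Myl6 encodes the essential light chain and Myh9 and Myh10 the heavy chains of nonmuscle myosin IIA and IIB. Myl6 stood at 13351, 95567 and 11741 in the knockdowns, against 9563, 9266 and 9394 in the controls. Replicate 2 held 7.62 times the mean of the other knockdowns, and Myl6 is the shortest of the members (log2 fold change 1.39, SE 0.83, limma adjusted p = 0.385; 0.41, SE 0.06, limma adjusted p = 0.000193 without that library). Myh9 stood at 25091, 11204 and 28379 in the knockdowns, against 23333, 27583 and 27066 in the controls, with overlap between the groups (log2 fold change −0.38, SE 0.39, limma adjusted p = 0.561; 0.04, SE 0.08, limma adjusted p = 0.706 without replicate 2). Myh10 stood at 6839, 3050.0 and 7234 in the knockdowns, against 7926, 7764 and 7920.2 in the controls, below the controls in all knockdowns, by most in replicate 2 (log2 fold change −0.56, SE 0.36, limma adjusted p = 0.411; −0.16, SE 0.05, limma adjusted p = 0.0236 without it). Actn1 and Actn4 encode the alpha-actinins that cross-link actin; their log2 fold changes were −0.37 and 0.06, and 0.15 and 0.06 without replicate 2, with limma adjusted p between 0.0511 and 0.816.

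Tropomyosins coil along actin filaments and set which myosins and cofactors can bind. Tpm4 stood at 8345, 6117 and 8086 in the knockdowns, against 4199.8, 4629.6 and 4544 in the controls, with all knockdowns above all controls (log2 fold change 0.74, SE 0.18, limma adjusted p = 0.0895; 0.88, SE 0.06, limma adjusted p = 2.23e-07 without replicate 2). Tpm2, the beta-tropomyosin of smooth and striated muscle, stood at 1582, 7659 and 1399 in the knockdowns, against 920.0, 967 and 994 in the controls. Replicate 2 was 5.14 times the mean of the other knockdowns (log2 fold change 1.42, SE 0.67, limma adjusted p = 0.298; 0.63, SE 0.07, limma adjusted p = 9.14e-06 without it). Tpm1, the most abundant of the family, stood at 12078, 16325 and 10949 in the knockdowns, against 12125, 11799 and 11792 in the controls, and the groups overlapped (log2 fold change 0.12, SE 0.21, limma adjusted p = 0.728; −0.05, SE 0.06, limma adjusted p = 0.511 without replicate 2). Tpm3 stood at 3364, 3839 and 3433 in the knockdowns, against 3324, 3345 and 3368 in the controls (log2 fold change 0.08, SE 0.14, limma adjusted p = 0.713).

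Dividing by transcript length allowed the members of a family to be compared as shares of their summed value per kb. Tpm1 made up 51.3% ± 0.994 of the tropomyosins in the knockdowns and 62.4% ± 1.13 in the controls (SD, n = 3 each; exact permutation test, two-sided p = 0.1, the smallest that 3 against 3 allow). Tpm4 made up 29.2, 15.3 and 30.2% in the knockdowns, against 17.8, 19.5 and 19.2% in the controls, so that replicate 2 alone lay below the controls (exact permutation p = 0.4). Cnn2 made up 55.8, 83.3 and 55.0% of the calponins in the knockdowns, against 33.2, 37.5 and 37.4% in the controls, and Cnn3 44.1, 16.6 and 45.0%, against 66.8, 62.5 and 62.6%. Cnn2 thus led in every knockdown and Cnn3 in every control (exact permutation p = 0.1 for each). These are shares of transcript and not of protein.

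In 2 other families the share of the minor member was higher and small. Tagln made up 9.38% ± 1.12 of the transgelins in the knockdowns and 4.62% ± 0.826 in the controls, and Actg2 2.40% ± 0.271 of the smooth muscle actins, against 1.22% ± 0.179 (SD, n = 3 each; exact permutation p = 0.1 for each). Tagln2 and Acta2 therefore still made up most of their families in both groups. Myh9 made up 79.7% ± 0.644 of the myosin heavy chains in the knockdowns and 77.5% ± 1.75 in the controls (exact permutation p = 0.1), and Myh11 at most 0.108% in any library. The share of Actn1 was 45.6% ± 14.6 in the knockdowns and 52.5% ± 0.978 in the controls (exact permutation p = 0.9), and its difference turned positive without replicate 2.

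**Figure D4:**
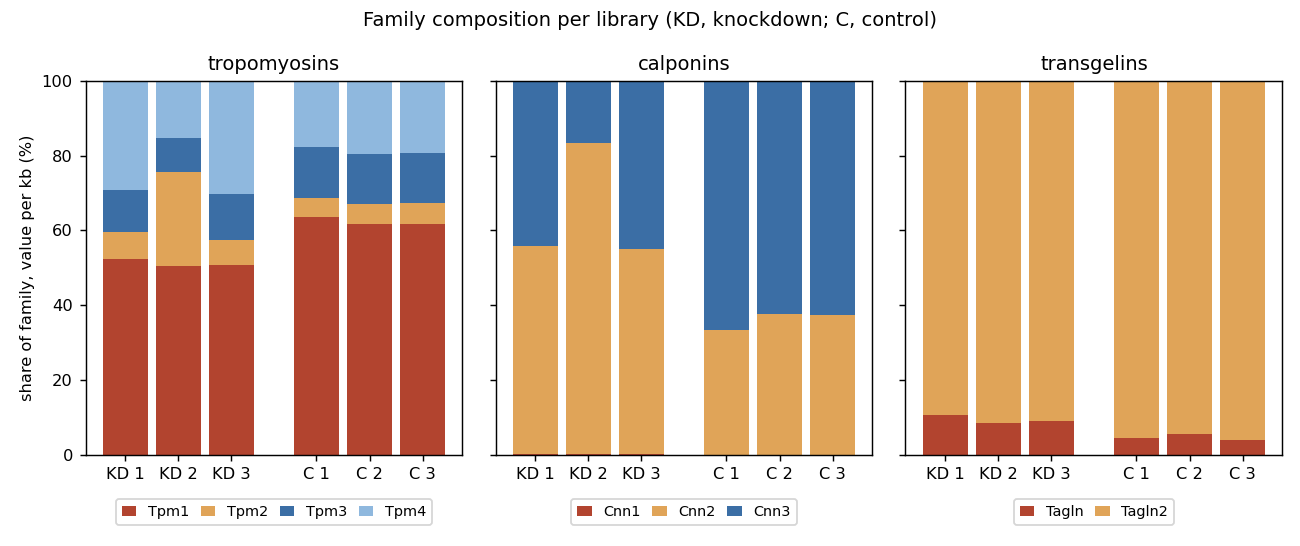
Share of each member in its family's summed value per kb of transcript (vertical axis, %), for tropomyosins, calponins and transgelins, as stacked bars for knockdown (KD) replicates 1 to 3 and control (C) replicates 1 to 3. Cnn2 fills 55.0% or more of the calponin bar in each knockdown and 37.5% or less in each control, and Tpm1 fills less of the tropomyosin bar in every knockdown.

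Of the 8 adhesion and LIM genes, 1 rose and 0 fell, with a median log2 fold change of 0.73. Over all genes tested, 3.2% rose and 1.78% fell. Without knockdown replicate 2, 5 of the 8 were called higher and 0 lower, where 23.8% of all genes were called higher and 26.1% lower. Zyx encodes zyxin, a LIM protein of focal adhesions that moves to actin fibres under tension. It stood at 9424, 10695 and 9377 in the knockdowns, against 3604, 4236 and 4243 in the controls. The 3 knockdown libraries lay close together and well above the controls, with a mean 2.44-fold higher (log2 fold change 1.29, SE 0.16, limma adjusted p = 0.0154; 1.23, SE 0.07, limma adjusted p = 1.37e-07 without replicate 2). Fhl2, a LIM-only protein that binds SRF cofactors, stood at 762, 536 and 824 in the knockdowns, against 261, 358 and 371 in the controls, without overlap (log2 fold change 1.09, SE 0.24, limma adjusted p = 0.0706; 1.28, SE 0.14, limma adjusted p = 0.000139 without replicate 2). Replicate 2 was the lowest knockdown for Fhl2 and the highest for Zyx.

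The cysteine- and glycine-rich proteins and Pdlim7 were higher in all knockdowns. Without knockdown replicate 2, their log2 fold changes were smaller than those of Zyx and Fhl2. Csrp1, which encodes a LIM protein of smooth muscle, stood at 5531, 7506 and 5319 in the knockdowns, against 3759, 4341 and 4458 in the controls (log2 fold change 0.53, SE 0.20, limma adjusted p = 0.206; 0.38, SE 0.07, limma adjusted p = 0.00103 without replicate 2). Csrp2, a relative found in vascular smooth muscle, stood at 1804, 6632 and 1551 in the knockdowns, against 1294, 1175 and 1201 in the controls (log2 fold change 1.11, SE 0.57, limma adjusted p = 0.328; 0.45, SE 0.07, limma adjusted p = 0.000272 without replicate 2). Pdlim7, a PDZ and LIM protein of actin fibres, stood at 1661, 3359 and 1728 in the knockdowns, against 978, 1228 and 1187 in the controls (log2 fold change 0.92, SE 0.31, limma adjusted p = 0.177; 0.59, SE 0.09, limma adjusted p = 0.000399 without replicate 2). In each of these 3 genes replicate 2 was the highest library.

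The large scaffolds of the adhesion did not follow. Vcl, vinculin, which links integrin complexes to actin, stood at 9983, 3299 and 10198 in the knockdowns, against 10332, 11272 and 10814 in the controls, with all knockdowns below all controls, replicates 1 and 3 by little (log2 fold change −0.64, SE 0.47, limma adjusted p = 0.458; −0.10, SE 0.06, limma adjusted p = 0.174 without replicate 2). Flna, filamin A, an actin cross-linker, stood at 30601, 29019.8 and 35056 in the knockdowns, against 29579, 34971 and 33091 in the controls (log2 fold change −0.05, SE 0.20, limma adjusted p = 0.891). Tgfb1i1, encoding Hic-5, a relative of paxillin and a coactivator, stood at 1377, 1254 and 1481 in the knockdowns, against 1218, 1329.7 and 1381 in the controls (log2 fold change 0.06, SE 0.14, limma adjusted p = 0.782). Flna and Tgfb1i1 overlapped between the groups.

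Of the regulators themselves, Srf was tested and not called, while Myocd was under the filter and not tested. Srf stood at 1019, 1241 and 1500.0 in the knockdowns, against 996, 1569 and 1533 in the controls (log2 fold change −0.11, SE 0.25, limma adjusted p = 0.785), so the knockdowns lay within the range of the controls, with knockdown replicate 1 and control replicate 1 the lowest. The members whose promoters hold a perfect CArG box included Myl9, Myl6, Cnn2 and Fhl2, with log2 fold changes of 2.07, 1.39, 1.36 and 1.09 (1.58, 0.41, 0.90 and 1.28 without knockdown replicate 2). They also included Srf and Vcl, with −0.11 and −0.64 (−0.11 and −0.10 without it), neither past the threshold in either fit.

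Of the 4 YAP targets, 1 rose and 0 fell. The rise is that of Ankrd1, which reached the mean of 10 only through the knockdowns, so it does not count for the list, and none of the other 3 passed. Without knockdown replicate 2, 2 were called higher (Ankrd1 and Amotl2) and 0 lower, where 23.8% of all genes were called higher and 26.1% lower. Ankrd1, which encodes a muscle ankyrin repeat protein induced by stretch, was low but stood apart, at 32.2, 42.5 and 34.1 in the knockdowns, against 4.92, 7.52 and 9.03 in the controls. Each knockdown library held at least 3 times every control, and the mean was 5.07-fold higher (log2 fold change 2.22, SE 0.31, limma adjusted p = 0.0197; 2.10, SE 0.35, limma adjusted p = 0.000379 without replicate 2); the fold in the authors' deposited table is 5.14. Control replicate 2 was at its own floor of 7.52, so the size of this fold is uncertain. Amotl2, an angiomotin that restrains YAP, stood at 5057, 1756 and 5298 in the knockdowns, against 3507, 3731 and 3774 in the controls. Replicates 1 and 3 lay above the controls and replicate 2 below them (log2 fold change −0.02, SE 0.45, limma adjusted p = 0.976; 0.50, SE 0.05, limma adjusted p = 1.46e-05 without replicate 2).

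Ctgf and Cyr61 encode secreted matricellular proteins and respond quickly to serum or tension. Ctgf stood at 1581, 1586 and 3071 in the knockdowns, against 756, 1273 and 1272 in the controls (log2 fold change 0.88, SE 0.36, limma adjusted p = 0.242; 1.04, SE 0.46, limma adjusted p = 0.165 without replicate 2). Cyr61 stood at 3730.2, 3886 and 7590.2 in the knockdowns, against 1592, 3708 and 3780.3 in the controls (log2 fold change 0.77, SE 0.46, limma adjusted p = 0.384; 0.92, SE 0.63, limma adjusted p = 0.324 without replicate 2). In both, knockdown replicate 3 was by far the highest library and control replicate 1 the lowest; the groups did not overlap for Ctgf and overlapped for Cyr61. Egr1 and Fos, immediate-early genes driven by SRF and named after their values were seen, had the same extremes at the upper end. Egr1 stood at 934, 804 and 3138 in the knockdowns, against 793, 1555 and 1589 in the controls (log2 fold change 0.09, SE 0.60, limma adjusted p = 0.929), and Fos at 140.2, 55.3 and 388 in the knockdowns, against 141, 218 and 240.3 in the controls (log2 fold change −0.43, SE 0.71, limma adjusted p = 0.709). Knockdown replicate 3 was the highest library for all 4 of these genes, and the part of this shared pattern in the values of Ctgf and Cyr61 was not tested.

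**Figure D5:**
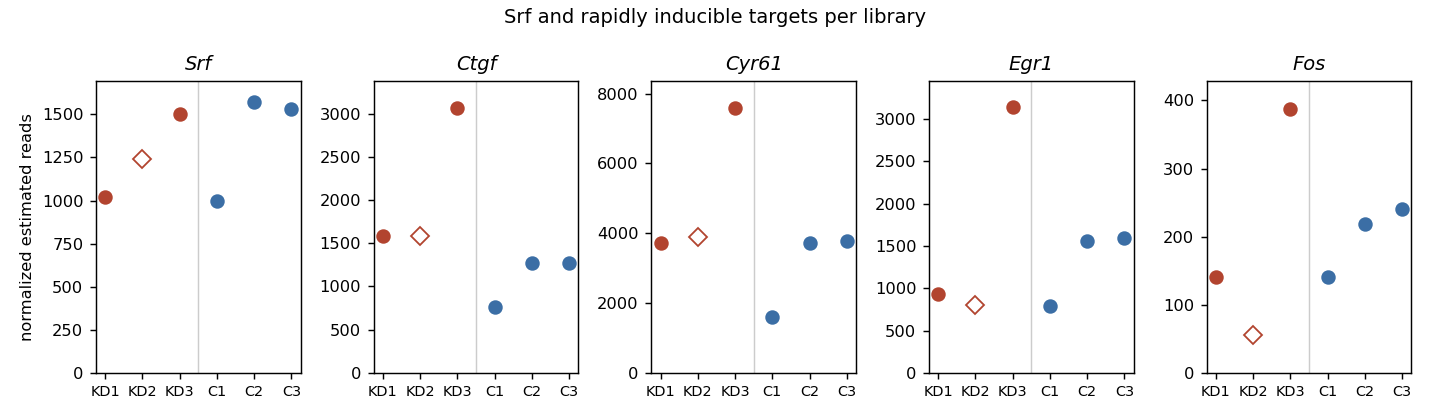
Deposited values (vertical axes, normalized estimated reads, each panel from 0) of Srf, the YAP targets Ctgf and Cyr61, and the immediate-early genes Egr1 and Fos in knockdown (KD) replicates 1 to 3, left of the line, and control (C) replicates 1 to 3. The open diamond is knockdown replicate 2; knockdown replicate 3 is the highest library for Ctgf (3071), Cyr61 (7590), Egr1 (3138) and Fos (388), but not for Srf.

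Levels per kb of transcript placed the members over a wide range. Myl6 ranked first in both groups, with 60481 ± 72089 normalized reads per kb in the knockdowns and 14147 ± 224 in the controls (SD, n = 3), a knockdown spread set by replicate 2. Acta2 followed with 10178 ± 3651 in the knockdowns and 7047 ± 744 in the controls, and Tpm1 with 7653 ± 1654 and 6946 ± 111 in the same order of groups. The ranges of mean ± SD of Acta2 and Tpm1 overlapped in both groups. These genes were not compared library by library. Tagln stood at 425 ± 178 per kb in the knockdowns and 94.4 ± 21.6 in the controls, below Tagln2 at 4245 ± 2223 and 1942 ± 182. Actg2 (258 ± 125 in the knockdowns, 86.3 ± 6.61 in the controls) and Lmod1 (84.5 ± 4.04 and 50.8 ± 5.17) were lower still. Ankrd1, Des, Synpo2, Cnn1, Myh11 and Myocd were the 6 lowest in both groups.

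The pathways around these genes gave few calls, as did the whole table, where 3.2% of all genes tested rose and 1.78% fell. Of 21 SRF cofactors and actin regulators tested, 0 rose and 0 fell, with a median log2 fold change of −0.12, and without knockdown replicate 2 the median was 0.08, with 5 called higher (23.8%, the same share as over all genes) and 6 lower. Their most abundant members were Cfl1, cofilin, which severs actin filaments (log2 fold change 0.47, SE 0.30, limma adjusted p = 0.419), and Pfn1, profilin, which binds actin monomers (log2 fold change 0.44, SE 0.37, limma adjusted p = 0.494). Of 19 genes of the Hippo pathway, 1 rose and 1 fell. Vgll3, a cofactor of the TEAD factors, rose to 1587, 1633 and 1724 in the knockdowns, against 679.6, 826 and 812 in the controls (log2 fold change 1.10, SE 0.15, limma adjusted p = 0.0185), and Tead4, one of those factors, fell to 161, 153 and 168, against 249, 311 and 282 in the controls (log2 fold change −0.80, SE 0.16, limma adjusted p = 0.0486). Of 18 further genes used as YAP signature genes, 1 rose, Nuak2, a kinase of the AMPK family, at 199.6, 157 and 190.4 in the knockdowns, against 78.8, 90.2 and 103 in the controls (log2 fold change 1.002, SE 0.19, limma adjusted p = 0.0437), and 0 fell; the median of that list was −0.28 with all libraries and 0.07 without knockdown replicate 2.

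Among 19 further SRF targets tested, 1 rose and 0 fell, with a median log2 fold change of 0.08. This was Tuft1, encoding tuftelin, at 174, 115 and 149 in the knockdowns, against 41.9, 62.6 and 33.4 in the controls (log2 fold change 1.67, SE 0.30, limma adjusted p = 0.039). Of 9 genes that act on myosin light chain phosphorylation or at integrins, 0 rose and 0 fell; the 2 most abundant were Ppp1cb, a catalytic subunit of myosin phosphatase (log2 fold change −0.33, SE 0.39, limma adjusted p = 0.607), and Ilk, integrin-linked kinase (log2 fold change 0.46, SE 0.16, limma adjusted p = 0.174). Of 12 further smooth muscle genes tested, with a median of 0.79, 2 rose and 1 fell. Pcp4l1 stood at 80.3, 72.3 and 72.1 in the knockdowns, against 30.8, 17.5 and 25.3 in the controls (log2 fold change 1.60, SE 0.26, limma adjusted p = 0.0291), and Ldb3, encoding a Z-disc protein, at 192, 179 and 154 in the knockdowns, against 89.3, 80.2 and 92.1 in the controls (log2 fold change 0.99, SE 0.17, limma adjusted p = 0.0336). Pgm5, encoding aciculin, which binds dystrophin and filamin in muscle, fell to 3910.4, 3556 and 3240.0 in the knockdowns, against 6829.6, 6607 and 6615 in the controls (log2 fold change −0.91, SE 0.15, limma adjusted p = 0.0311).

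Of 10 genes known to hold smooth muscle genes down, 0 rose and 1 fell. Klf5, a Kruppel-like factor of proliferating smooth muscle, stood at 25.4, 29.8 and 25.6 in the knockdowns, against 80.8, 62.6 and 53.3 in the controls (log2 fold change −1.24, SE 0.23, limma adjusted p = 0.0425). Of 11 genes of the TGF-beta input, 1 rose and 0 fell. Eng, encoding the coreceptor endoglin, stood at 1061, 1360.4 and 1146 in the knockdowns, against 599.7, 646 and 682 in the controls (log2 fold change 0.88, SE 0.16, limma adjusted p = 0.0377). Each of the genes called in these lists passed without knockdown replicate 2, and each missed the threshold when any other single library was left out. Their highest limma adjusted p in those fits ran from 0.134 for Vgll3 to 0.263 for Tead4. With total scaling, none of the 9 passed (limma adjusted p 0.0573 for Klf5 to 0.254 for Nuak2), with each difference in the same direction. Without knockdown replicate 2, where 23.8% of all genes were called higher and 26.1% lower, the lists had 6 genes higher and 5 lower (Hippo pathway), 7 and 5 (YAP signature), 5 and 3 (further SRF targets), 3 and 0 (myosin light chain phosphorylation), 7 and 4 (further smooth muscle genes), 4 and 3 (repressors) and 6 and 1 (TGF-beta input). The Hippo genes, at 31.6% higher and 26.3% lower, and the further SRF targets, at 26.3% higher, were near that background. Vgll3 and Tead4, which act together at TEAD sites, thus differed in opposite directions.

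Markers of other cell types were checked for the same libraries. Of 25 skeletal and cardiac muscle markers, 7 were tested and 0 called with all 6 libraries. With no filter, 0 of 23 were called higher and 1 lower, against 435 and 194 of 16507 genes. The authors' deposited table lists Myh6, one of these markers and named after its values were seen, with a fold of 0.0569. Without knockdown replicate 2, 5 were tested, with 1 called higher and 1 lower, where 23.8% of all genes were called higher and 26.1% lower. The 25 markers summed to 174 to 940 in the knockdowns, against 200 to 278 in the controls, with Myh4 and Myh8 at 0 in every library. The most abundant were Tnni1 (log2 fold change −0.78, SE 0.68, limma adjusted p = 0.507) and Tnnc1 (log2 fold change 0.90, SE 0.89, limma adjusted p = 0.541), both highest in knockdown replicate 2. Pericyte markers, of which 4 were tested, had 2 called higher and 1 lower without knockdown replicate 2. With all 6 libraries, 4 of 8 pericyte markers were tested and 1 rose. This was Mcam, an adhesion molecule of pericytes and smooth muscle, named after its values were seen, at 189, 72.3 and 198 in the knockdowns, against 26.4, 20.05 and 33.4 in the controls (log2 fold change 2.38, SE 0.45, limma adjusted p = 0.0467; 2.85, SE 0.21, limma adjusted p = 6.66e-07 without replicate 2, and limma adjusted p up to 0.197 without another library). Its list summed to 4069 to 7814 in the knockdowns, against 8604 to 9810 in the controls, with Higd1b at 0 in every library, Cspg4 at −0.97 and Anpep at −0.29 on the log2 scale. The part of these cells in the member values was not tested.

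The remaining marker lists gave no calls with all 6 libraries. Without knockdown replicate 2, 2 of 2 endothelial markers tested were called higher, and 0 leukocyte or epithelial markers were called. Of 10 mesenchymal markers, 4 were called higher and 5 lower in that fit, which called 23.8% of all genes higher and 26.1% lower. Of 8 endothelial markers, 2 were tested, Egfl7 (log2 fold change 2.19, SE 0.66, limma adjusted p = 0.141) and Tek (log2 fold change 0.42, SE 0.21, limma adjusted p = 0.316). All 8 summed to 284 to 846 in the knockdowns, against 153 to 156 in the controls, and Tie1 was at 0 in every library. Leukocyte markers summed to 77.4 to 191 in the knockdowns and 87.6 to 114 in the controls, and their most abundant genes were Cd14 and Cd68, with Emr1 and Tyrobp at 0 in every library. Epithelial markers summed to 17.1 to 42.5 in the knockdowns and 15.0 to 31.6 in the controls, with Cdh1 and Krt8 the most abundant and Cldn3 at 0 in every library. For the labelled cell type, all 10 mesenchymal markers were above the filter and tested, 0 were called, and they summed to 284870 to 298213 in the knockdowns, against 332738 to 336662 in the controls. Vim stood at 60681, 109659 and 61907 in the knockdowns, against 115275, 112656 and 117413 in the controls (log2 fold change −0.63, SE 0.31, limma adjusted p = 0.317; −0.91, SE 0.06, limma adjusted p = 3.53e-07 without replicate 2), and Col1a2 at 142911, 76218 and 147259 in the knockdowns, against 114188, 123716 and 121848 in the controls (log2 fold change −0.03, SE 0.34, limma adjusted p = 0.952).

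Genes most like Tagln over the 6 libraries, among the 589 called genes outside all of these lists, were Tmem119, Mocos, Cdkn3, Rbpms2 and D2Ertd750e. Their log2 values correlated with those of Tagln at a Pearson r of 0.997, 0.996, 0.995, 0.994 and 0.994, over points that share depth and library. Rbpms2, which encodes an RNA-binding protein of smooth muscle precursors, stood at 94.4, 162 and 83.1 in the knockdowns, against 35.99, 40.1 and 33.4 in the controls (log2 fold change 1.55, SE 0.29, limma adjusted p = 0.0462). Cdkn3, which encodes a phosphatase of cell cycle kinases, stood at 171, 408 and 165 in the knockdowns, against 41.3, 52.6 and 43.3 in the controls (log2 fold change 2.29, SE 0.39, limma adjusted p = 0.0345). Tmem119, a transmembrane protein known from osteoblasts and microglia, stood at 161, 242 and 149 in the knockdowns, against 58.8, 72.7 and 65.04 in the controls (log2 fold change 1.45, SE 0.24, limma adjusted p = 0.0327). Their shared order of libraries with Tagln comes from this choice and is no separate result. Each of these 5 genes missed the threshold when any library other than knockdown replicate 2 was left out, with the highest limma adjusted p from 0.178 for Tmem119 to 0.221 for D2Ertd750e.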

How the data were processed

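RNA of 3 knockdown and 3 control samples was sequenced; per the labels' protocols it was isolated with Trizol and libraries followed the Illumina TruSeq protocol. The submitters' processing notes name mouse build mm9, RSEM 1.2.12 and Bowtie 1.0.0. They name no annotation or strand setting, so reads of overlapping or antisense partners may be mixed, and RSEM can divide reads between paralogs such as actins and tropomyosins. The authors deposited a signal per gene and library, which is an estimated read count after median normalization. They also deposited a list of 323 genes with a fold (ratio of knockdown to control), with no statement of its test. Whether replicates are separate cultures is not in the labels, so p-values reflect only the spread of these samples, which may be technical.

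Depth was estimated from the value of 1 read, the most frequent lowest value of each library. Of low values, 88.3 to 90.5% were whole multiples of it within 0.1 read, so whole reads were not recovered and a count test was not used. Floors of 3 reads cover counting error only. Libraries of a group always differed by more than sampling noise (the lowest chi-square per degree of freedom was 1.51), so each counted as a sample.

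Genes with a mean of at least 10 were tested in R 4.3.3 by limma 3.58.1 on log2(value + 1) (knockdown minus control, trended and robust empirical Bayes, two-sided, Benjamini-Hochberg adjusted p under 0.05 over all genes tested). This scale understates the fold of low genes. Groups of 3 against 3 cannot give an exact permutation p under 0.1. Standard errors are those of the model. The code was tested on simulated data. Transcript lengths were the median of the CCDS transcripts of each gene in GENCODE M21, a newer annotation than the authors' build, and were used for levels per kb, family shares and the length correction; all 38 members and 11949 of 12085 tested genes had one. Promoters came from RefSeq on GRCm38.p6.

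The members, gene lists and tests were chosen with earlier results of these data known. Genes named are all members, Ring1 and Rnf2, up to 3 called genes of each other list (the 2 most abundant where none was called), the 2 most abundant of each marker list and the 5 genes most like Tagln; others are marked. Alternatives were pseudocounts of 0.1 and 10, no filter, a mean of at least 50, total and upper-quartile scaling, the replicate number as a block, plain empirical Bayes, library weights, a length correction (also with all coding transcripts) and each library left out.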

Additional observations from a re-analysis of the deposited data

How the results depend on the processing

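The median log2 fold change of the members was positive in all settings run: 0.59 with the main settings, 0.66 with no filter, 0.53 at a mean of at least 50, 0.45 with total scaling, 0.50 with library weights, 0.64 with a length correction over all coding transcripts (chosen after seeing the data), and 0.46 to 0.65 when each library was left out. Counts of calls moved far more. Against 3 members called higher and 0 lower, total scaling gave 5 higher, library weights 22 higher and 4 lower, the length correction 8 higher and its version over all coding transcripts 6 higher, and leaving out a library gave 0 to 20 higher and 0 to 2 lower. Over the whole table, against 387 higher and 215 lower, total scaling gave 184 and 118, library weights 4214 and 4596, the length correction 819 and 533, its version over all coding transcripts 636 and 358, and leaving out a library 0 to 2855 and 0 to 3136. Total scaling moved the median of all genes to −0.14.

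With the replicate number as a block, 0 genes and 0 members were called (limma), while 1866 genes and 13 members had an unadjusted p under 0.05, against 2473 and 14 in the main test. Same-numbered samples share only a number: the correlations of their deviations from the group means were 0.17, −0.05 and −0.05, so the block was not used beside the results. When a library other than knockdown replicate 2 was left out, 0 members were called. In those fits 9 to 15 members had an unadjusted limma p under 0.05, against 1475 to 2482 genes over the whole table. No called member changed direction under any setting. Tagln, Zyx and Ankrd1 passed in every setting other than the block and those left-out libraries, except that Ankrd1 was below the filter at a mean of at least 50.

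Members near no difference changed sign (log2 fold change): Tpm1 at −0.024 with total scaling, −0.13 with the length correction and −0.016 over all coding transcripts; Tpm3 at −0.062, −0.014 and −0.19; Tgfb1i1 at −0.078, −0.29 and −0.017 in the same order. Actn4 was at −0.082 with total scaling, −0.014 with library weights and −0.11 over all coding transcripts, Flna at 0.40 with the length correction and 0.39 over all coding transcripts, Myh9 at 0.031 with the length correction, Actn1 at 0.10 with library weights, and Amotl2 at 0.46 with library weights and 0.19 with the length correction. Leaving out a library gave −0.50 to 0.025 for Cald1, −0.15 to 0.79 for Synpo2, −0.050 to 0.24 for Tpm1, −0.65 to 0.15 for Actn1, −0.0063 to 0.10 for Actn4, −0.63 to 0.042 for Myh9, −0.12 to 0.013 for Flna, −0.32 to 0.028 for Srf and −0.30 to 0.50 for Amotl2. The difference in family share of Actn1 ran from −11.4 to 1.53 percentage points and that of Actn4 from −1.53 to 11.4. The cause was not tested. The shallow libraries, the second of each group, limit what can be said of Myh11, Cnn1, Myocd, Des and Ankrd1.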
